A study of Mus musculus with 28 samples.

Results

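On 28 2-colour arrays of 7 mouse embryonic stem (ES) cell lines, 75 of 42006 array probes gave no Cy3 signal well above background on any of the 14 arrays of cells kept in doxycycline (Dox), and gave one on both arrays without Dox of at least 1 line. A probe is called on where the scanner software marked its Cy3 spot as well above background, and off otherwise. The members were chosen by these calls alone, with 1 spot per probe and control spots left out. Since the calls chose them, their Cy3 levels, Cy3 differences and log ratios are given as a description, with no test. With Dox and no Dox exchanged, the same rule chose 108 other probes, here called the exchanged set.

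Each line is 1 clone of the parental line MC1R(20), from male ES cells of strain 126S6/SvEvTac, and carries 1 transgene that is silent in Dox and expressed after its removal (Tet-off). The transgenes were Tcl1 (clone 6), Etv5 (clone 24), Tbx3 (clone 15), Jarid2 (clone 37), Jmjd2c (clone 14), Ctbp2 (clone 23) and Mettl5 (clone 15). Cells at passage 25 were plated in medium with LIF, puromycin at 1.5 µg/ml and Dox at 0.2 µg/ml, and the wells of the transgene-on group were washed 3 times at intervals of 3 h to take Dox away. Both groups were harvested 48 h after the last wash, 2 of the 3 wells per condition were hybridised, and puromycin and LIF were thus common to all groups. With 1 clone per transgene, a difference between lines cannot be told apart from one between clones. The wells of a group are separate cultures of 1 clone, and their spread measures that and the array.

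In a Tet-off line, a transactivator bound to a Dox-sensitive promoter drives the transgene, and Dox releases it. Tcl1 is a coactivator of the kinase Akt, Etv5 and Tbx3 are transcription factors of the ETS and T-box families, Jarid2 is a subunit of Polycomb repressive complex PRC2, Jmjd2c is a histone lysine demethylase, Ctbp2 is a corepressor and Mettl5 is a methyltransferase. A probe that crosses from background to signal when a transgene comes on is a candidate for a transcript that was silent, but with dim spots the crossing also depends on where each array's cutoff lies. Each array carried the sample in Cy3 and, in Cy5, one common reference, in which RNA pooled from 11 mouse cell lines was mixed at 2 to 1 with RNA of 129ES cells, so the Cy5 signal of a spot should not follow Dox.

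The array files name no gene for any probe. All 42006 probes had an unknown description and no map position, 0 of the 75 member IDs matched the RefSeq table, and 0 of the 75 members shared a run of 30 bases with its promoter windows or miRNA hairpins. Probes are therefore given by ID and by their 60-base sequence, and the lists of ES cell, lineage and other cell type markers could not be applied. The first set below holds the 3 members on in more than 1 line, shown because only these recurred between lines.
Z00072898-1: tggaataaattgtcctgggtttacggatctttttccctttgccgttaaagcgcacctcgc
Z00039979-1: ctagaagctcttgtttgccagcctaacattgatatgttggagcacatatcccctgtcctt
Z00076692-1: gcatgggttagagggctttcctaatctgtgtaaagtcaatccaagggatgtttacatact

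For each line with members, the next set holds the 2 on in that line with the largest lower bound of the Cy3 difference. This bound is defined below, and the lines are in the order Tcl1, Etv5, Tbx3, Jmjd2c, Ctbp2 and Mettl5. The last 2 probes of the set are the exchanged probes with the largest lower bound, from the Tcl1 and the Tbx3 line.
Z00055424-1: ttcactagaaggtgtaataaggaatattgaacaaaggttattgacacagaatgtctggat
Z00052160-1: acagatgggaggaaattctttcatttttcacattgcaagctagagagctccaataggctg
Z00001968-1: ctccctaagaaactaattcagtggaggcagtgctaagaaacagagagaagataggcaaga
Z00068697-1: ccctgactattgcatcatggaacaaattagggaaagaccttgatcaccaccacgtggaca
Z00070818-1: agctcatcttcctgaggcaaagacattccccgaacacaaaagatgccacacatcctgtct
Z00048357-1: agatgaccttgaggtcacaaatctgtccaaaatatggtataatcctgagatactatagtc
Z00051892-1: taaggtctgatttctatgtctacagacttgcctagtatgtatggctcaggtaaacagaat
Z00075034-1: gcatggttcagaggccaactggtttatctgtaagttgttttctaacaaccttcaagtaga
Z00066090-1: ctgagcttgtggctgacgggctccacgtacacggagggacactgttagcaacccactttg
Z00071368-1: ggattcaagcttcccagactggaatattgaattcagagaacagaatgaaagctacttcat
Z00055471-1: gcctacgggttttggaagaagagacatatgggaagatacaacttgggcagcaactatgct
Z00037100-1: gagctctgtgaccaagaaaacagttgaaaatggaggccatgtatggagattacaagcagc
Z00077715-1: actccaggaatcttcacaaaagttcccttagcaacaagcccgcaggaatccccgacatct
Z00057598-1: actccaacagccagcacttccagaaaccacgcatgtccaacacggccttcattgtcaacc

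The on call was a cutoff on the background-subtracted Cy3 signal of each array: on 28 of 28 arrays every off spot lay under the lowest on signal. The cutoff lay between 8.2 and 11.3 on the arrays with Dox and between 6.91 and 15.9 on those without (arbitrary fluorescence units, as are all signals below). Between 25428 and 28841 probes were on per array. Each line's 4 arrays shared a slide, except that Tbx3 Dox- replicate 1 lay alone on another slide than the other 3 Tbx3 arrays.

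Of the 42006 probes, 9897 were off on all 14 Dox+ arrays, and the 75 members made up 0.758% of these. In the other direction 10150 probes were off on all 14 Dox- arrays, and the 108 exchanged probes made up 1.06% of these. Probes that went from off to on when Dox was removed were thus fewer than those that went the other way at this cutoff, but with on set at 2 times the cutoff the order turned, with 10 members and 8 exchanged probes. The same rule on the Cy5 reference chose 26 probes of 8441 (0.308%) without Dox and 60 of 8578 (0.699%) exchanged, although the reference RNA was the same on every array.

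The members were spread unevenly over the lines. Etv5 had 28, Jmjd2c 19, Ctbp2 14, Tbx3 9, Tcl1 6, Mettl5 4 and Jarid2 0, while the exchanged set had 43 in Etv5, 1 in Jmjd2c, 14 in Ctbp2, 15 in Tbx3, 26 in Tcl1, 13 in Mettl5 and 3 in Jarid2. As shares of the probes off on the opposite arrays, this is 0.283% against 0.424% in Etv5, 0.192% against 0.00985% in Jmjd2c, 0.141% against 0.138% in Ctbp2, 0.0909% against 0.148% in Tbx3, 0.0606% against 0.256% in Tcl1, 0.0404% against 0.128% in Mettl5 and 0.0% against 0.0296% in Jarid2. At these calls Jmjd2c was the only line with more members than exchanged probes, and Ctbp2 had as many of each. With the weaker flag of the scanner software, signal significantly above background, the counts were 27 against 20 in Jmjd2c and 10 against 37 in Ctbp2, so the sizes of these differences depend on the call.

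The number of probes on per array also differed between the lines. Jmjd2c was the only line with more probes on without Dox, a mean of 28033.5 against 27148.5, and its 2 Dox- arrays had the cutoffs 6.91 and 9.25 against 8.83 and 9.32 with Dox. Tcl1 had the largest fall, from 27297.5 to 25968.0, with cutoffs of 14.1 and 15.9 without Dox against 11.2 and 11.1. Over the 7 lines the number of probes on fell by 414.9 without Dox (SD 659.7, 6 of 7 lines lower), which did not pass an exact two-sided sign-flip permutation test over the lines (p = 0.141, the smallest possible being 0.0156). The Cy5 reference fell by 503.2 probes in the same comparison (exact permutation p = 0.0156). In the other lines the change was -323.0 in Tbx3, -426.5 in Ctbp2, -519.0 in Etv5, -594.0 in Mettl5 and -597.5 in Jarid2. None of these lines had more members than exchanged probes. The part of the cutoffs in the counts of members was not tested. A common cutoff on all arrays chose 72 members and 94 exchanged probes, of which only 20 and 21 were among the 75 and the 108. By line it gave 11 against 9 in Etv5, 10 against 4 in Jmjd2c, 19 against 24 in Tcl1, 14 against 21 in Ctbp2, 14 against 24 in Tbx3, 5 against 19 in Mettl5 and 2 against 3 in Jarid2.

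If the other lines are left aside and each line is read alone, 627 times a probe was off on both Dox+ arrays and on on both Dox- arrays, and 1502 times the reverse. The Jmjd2c line gave 313 of the first kind and 24 of the reverse, and the Tcl1 line 28 and 498. The Cy5 reference gave 243 and 1210 over the 7 lines.

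Members were dim and close to the cutoff. In the 80 pairs of a member and a line where it was on, the lower of the 2 Dox- signals was at the median 1.2 times its array's cutoff, and in 10 pairs both were at least 2 times the cutoff. On the Dox+ side, the highest of a member's 14 signals was at the median 0.853 of its cutoff, and for 52 of 75 members it was within 20% of it. Just inside the rule, Z00063639-1 read 9.71 on Etv5 Dox- replicate 1 and 25.6 on replicate 2, and Z00054633-1 read 6.91 and 10.7 in Jmjd2c. Just outside it, Z00027096-1 read 6.89 and 10.0 in Jmjd2c, at 0.998 of the cutoff of the first array, though it was a member through the Etv5 line.

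Most crossings did not recur. Of the 9897 probes off with Dox, 1591 were on on at least 1 Dox- array and 4.71% of those were members; exchanged, 5.86% of 1844 were. Of the 75 members, 72 were on in 1 line only, 2 in 2 lines and 1 in 4 lines, and 38 were on on no Dox- array beyond the 2 that chose them. In the exchanged set 101 were on in 1 line and 7 in 2.

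Z00072898-1 was on without Dox in the Tcl1, Tbx3, Ctbp2 and Mettl5 lines, the most of any member. Its Cy3 signals were 4.62 and -0.742 with Dox against 42.9 and 29.6 without in Tcl1. In Tbx3 they were 0.127 and 0.864 against 23.3 and 26.9. In Ctbp2 they were -2.1 and 1.34 against 12.8 and 12.7, and in Mettl5 -3.93 and 0.44 against 11.1 and 15.1. The groups did not overlap in any of these lines.

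In the other 3 lines Z00072898-1 was also higher without Dox but mostly stayed under the cutoff. In Etv5 it read 2.5 and 1.68 with Dox against 10.1 and 11.3, and only the first of the latter was on. In Jarid2 it read -0.134 and -0.488 against 5.01 and 4.72, and in Jmjd2c 2.07 and -1.89 against 4.25 and 4.28. Both arrays without Dox thus lay above both with Dox in 7 of 7 lines, and 12 of the 14 Dox- arrays lay above every Dox+ array. It was the only one of the 9897 probes off with Dox with that order in all lines (0.0101%). The rule had largely set the order in the 4 lines that chose this probe, so this is a description only. The reverse order in all lines held for 1 of the 9897 and for 2 of the 10150 probes off without Dox (0.0197%).

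In Cy5, which the rule did not use, Z00072898-1 read 18.8 to 39.6 over the 28 arrays (median 28.6) and was on on 25. None of the 4 lines passed in Cy5 in limma's moderated test, with changes without Dox of 0.08 in Tcl1 (SE 0.08, adjusted p = 1), 0.06 in Tbx3 (SE 0.08, adjusted p = 0.653), -0.06 in Ctbp2 (SE 0.08, adjusted p = 1) and -0.15 in Mettl5 (SE 0.08, adjusted p = 1), all on the log2 scale. The log2 ratio of sample over reference differed by 0.67 (SE 0.08) in Tcl1, 0.51 (SE 0.08) in Tbx3, 0.47 (SE 0.08) in Ctbp2 and 0.53 (SE 0.08) in Mettl5. It differed by 0.26 (SE 0.08) in Etv5 and by 0.15 (SE 0.08) in both Jarid2 and Jmjd2c. These ratios are damped by the offset of 50 that the background correction adds to dim spots. The Tcl1 difference came to 3.36 from the signals as the scanner software had processed them. Those carry no such offset, but they differ in their other processing too and were set to no less than 1.

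The other 2 recurrent members were much closer to the cutoff. Z00039979-1 read 7.64 and 6.58 with Dox against 11.9 and 13.3 in Jmjd2c, and 8.92 and 5.0 against 13.2 and 11.5 in Ctbp2. Z00076692-1 read 10.2 and 10.2 against 12.5 and 18.7 in Etv5, and 6.31 and 4.18 against 7.04 and 9.75 in Jmjd2c. The groups did not overlap in either line, but over all arrays without Dox the 2 probes ranged from 0.209 to 13.3 and from 2.48 to 18.7, across the ranges with Dox of 3.35 to 8.92 and 1.19 to 10.2. Z00076692-1 was off in Cy5 on all 28 arrays and Z00039979-1 was on there on 23.

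For dim probes the size of the Cy3 difference is given as a lower bound: the mean normalised Cy3 level without Dox over the mean with Dox, with each off array set to no less than its dimmest on probe. The bound was at least 1.5-fold in 10 of the 80 pairs, with a median of 1.25 and a maximum of 2.96. In the 115 exchanged pairs it was at least 1.5-fold in 6, with a median of 1.1 and a maximum of 2.51.

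Most of the brightest members were higher in both dyes at once. Of the 10 pairs with a bound of at least 1.5-fold, Cy5 was higher on both Dox- arrays than on both Dox+ arrays in 9, and 6 passed in the Cy5 fit. These pairs lay in Tcl1, Tbx3 and Ctbp2. There the first held for 11.5%, 3.28% and 11.0% of all probes, and the second for 0.0748%, 7.14% and 0.0358% of those tested. Z00055424-1, the largest, read 97.7 and 125 in Cy3 on the Tcl1 arrays without Dox against 1.47 and -4.04 with Dox, at least 2.96-fold higher. The Cy5 reference at the same spots read 129 and 164 against 1.24 and -2.47, a rise of 1.68 (log2, SE 0.14, limma adjusted p = 5.66e-06). The ratio of the dyes differed by 0.07 (SE 0.08), and by 0.52 from the scanner software's processed signals. The probe was off in Cy5 on 25 of the 28 arrays, and the third on array, Etv5 Dox- replicate 2, was also on in Cy3, at 37.4 in Cy3 and 58.7 in Cy5.

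Of the 80 pairs, 57 passed the filter for the Cy5 fit, which asks for Cy5 well above background on both arrays of some group, and 11 of these passed at an adjusted p under 0.05, all higher without Dox as in Cy3. A probe dim in the reference can pass that filter only through the group where it is bright. Z00055424-1 in Tcl1, Z00048357-1 and Z00070818-1 in Tbx3 and Z00071368-1 in Ctbp2 did so. Z00058561-1 and Z00061525-1 were on in Cy5 on only 2 arrays each, so each entered through 1 group. The exchanged probes Z00077715-1 in Tcl1 and Z00057598-1 in Tbx3 entered through their group with Dox alone. The adjusted p-values of such probes carry this limit wherever they are given. Without the filter 11 pairs also passed. Tbx3, Tcl1 and Ctbp2 gave most of the 11 pairs of the filtered fit. Of the members tested, 5 of 7 passed in Tbx3, 3 of 6 in Tcl1 and 2 of 11 in Ctbp2. In Etv5 1 of 20 passed, and none of 9 in Jmjd2c and none of 4 in Mettl5. The counts given below for fits without a Tbx3 array are out of all 9 members of that line, tested or not. Among all 30731 probes tested in Cy5, 7.14% passed in Tbx3, 0.0748% in Tcl1, 0.0358% in Ctbp2, 0.013% in Etv5, 0.026% in Mettl5, 0.00651% in Jarid2 and 0.0% in Jmjd2c. In these 11 pairs Cy5 rose by 0.25 to 1.68 and the log ratio differed by -0.04 to 0.15.

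Without a test threshold, Cy5 at the spot was higher on both Dox- arrays than on both Dox+ arrays of the line in 39 of the 80 pairs (48.8%). Over all probes, with the lines weighted as the pairs are, this held for 14.0%. By line it was 5 of 6 in Tcl1 against 11.5% of all probes, 6 of 9 in Tbx3 against 3.28%, 9 of 14 in Ctbp2 against 11.0% and 3 of 4 in Mettl5 against 16.0%. In Etv5 it was 11 of 28 against 15.7%, and in Jmjd2c 5 of 19 against 19.1%, the line nearest to its background. The exchanged set showed the same in the other direction, with Cy5 higher on both Dox+ arrays in 62 of 115 pairs (53.9%) against 19.8% of all probes. Its counts were 19 of 26 in Tcl1 against 22.4%, 13 of 43 in Etv5 against 11.2%, 15 of 15 in Tbx3 against 58.0%, 10 of 14 in Ctbp2 against 13.0% and 3 of 13 in Mettl5 against 9.87%. Jarid2 had 1 of 3 against 8.47% and Jmjd2c 1 of 1 against 12.6%. Of its 84 pairs tested in Cy5, 16 passed in limma, all lower without Dox, by -1.46 to -0.34.

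In Tcl1, 4 further members were higher in both dyes on both Dox- arrays than on both Dox+ arrays, of which 2 passed in Cy5. Z00052160-1 read 80.0 and 32.9 against 11.2 and 2.59 in Cy3 and 110 and 60.3 against 25.8 and 19.2 in Cy5, a Cy5 difference of 0.81 that did not pass (SE 0.25, adjusted p = 0.566). It was also on on single Dox- arrays of the Tbx3 line, at 77.2 in Cy3 and 190 in Cy5, and of the Ctbp2 line, at 39.2 and 108. Z00058561-1 read 33.4 and 34.3 against 8.66 and 3.33 in Cy3, and its Cy5 rose by 0.69 (SE 0.08, adjusted p = 0.000267). Z00055035-1 read 33.7 and 27.6 against 10.7 and 7.43, with a Cy5 rise of 0.43 (SE 0.05, adjusted p = 0.000173). The log ratios of these 3 probes differed by -0.05 (SE 0.08), -0.02 (SE 0.10) and less than 0.01 (SE 0.07), but from the scanner software's processed signals that of Z00052160-1 differed by 1.48. Z00031758-1 read 63.6 and 20.0 against -1.09 and 1.18 in Cy3 and 78.6 and 22.3 against 14.6 and 10.2 in Cy5, where the difference of 0.56 did not pass (SE 0.14, adjusted p = 0.329). Its log ratio differed by 0.36 (SE 0.08), more than those of the other 3.

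In Tbx3, Z00048357-1 read 37.2 and 36.5 in Cy3 against -0.675 and -1.6, and 74.5 and 67.0 in Cy5 against -3.17 and -2.17. Its Cy5 rise was 0.93 (SE 0.07, adjusted p = 1.37e-06). It was on in Cy5 on these 2 arrays only, and so entered the Cy5 fit through this group alone. Z00070818-1 read 32.2 and 48.7 against 1.2 and 4.42, with 59.2 and 87.0 against -1.48 and 8.04 in Cy5 (rise 0.91, SE 0.16, adjusted p = 0.0168). The log ratios differed by 0.01 (SE 0.08) and -0.01 (SE 0.08), and by 0.26 and 0.18 from the processed signals. Without Tbx3 Dox- replicate 1, which lies on another slide, 3 of the 9 Tbx3 members passed in Cy5, these 2 among them, against 1.3% of all probes. Without replicate 2, 4 of the 9 members of the line passed, these 2 again among them, against 33.7% of all probes, so the share that passes in this line depends on which array is left out.

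In Ctbp2, Z00071368-1 read 21.6 and 25.8 against -1.62 and 2.66 in Cy3 and 44.3 and 47.9 against -3.07 and 4.98 in Cy5 (rise 0.60, SE 0.10, adjusted p = 0.0336). Z00009731-1 read 34.8 and 24.3 against 2.64 and 2.24, with a Cy5 rise of 0.51 (SE 0.06, adjusted p = 0.00036). Z00066090-1 had the largest log ratio difference of any pair, 0.79 (SE 0.23), but its 2 arrays without Dox disagreed: Cy3 read 107 and 28.4, Cy5 read 27.4 and 55.8, and the log ratios were 1.5 and 0.14. Without the first of them its difference was 0.11.

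In Mettl5, the 2 leading members were also higher in the reference, but neither passed there. Z00055471-1 read 23.7 and 11.2 against 5.67 and 3.14 in Cy3 and 59.9 and 27.2 against 16.0 and 11.6 in Cy5 (0.42, SE 0.09, adjusted p = 0.286). Z00037100-1 read 17.8 and 18.6 against -0.721 and 9.32 in Cy3 and 47.3 and 43.3 against 8.24 and 31.9 in Cy5 (0.30, SE 0.10, adjusted p = 1).

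The 2 exchanged probes showed the mirror image. Z00077715-1 read 87.7 and 83.3 with Dox in Tcl1 against -0.302 and -2.77 without, and 105 and 115 against -1.75 and -7.84 in Cy5, which fell by 1.46 (SE 0.16, adjusted p = 0.000173). Z00057598-1 read 61.8 and 57.2 with Dox in Tbx3 against 1.6 and 5.44, and 198 and 143 against 1.35 and 7.83 in Cy5, which fell by 1.31 (SE 0.07, adjusted p = 3.01e-09). Their log ratios differed by -0.02 (SE 0.09) and 0.08 (SE 0.09).

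The Etv5 members shared a place on the array. Of the 28, 21 lay in columns 75 to 85 of the 85 columns, at rows 320 and above of the 532, against 12.4% of all probes and 6.98% of the 43 exchanged Etv5 probes in those columns. The columns were delimited after the values were seen, so no test is given. The members of the other lines had 0 of 6 (Tcl1), 1 of 9 (Tbx3), 4 of 19 (Jmjd2c), 2 of 14 (Ctbp2) and 0 of 4 (Mettl5) there. Without columns 75 to 85 the rule chose 48 members, 7 of them in Etv5, and 98 exchanged probes.

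All 21 were brighter on Etv5 Dox- replicate 2 than on replicate 1, by a median ratio of 1.65. The cutoffs of these 2 arrays were 13.9 and 9.69, so the rule itself favoured this order. Of the 7 Etv5 members in other columns, 6 were also brighter on replicate 2, and the median ratio of the 7 was 1.37. The 2 leading Etv5 members, both among the 21, show the order. Z00001968-1 read 8.98 and 5.45 with Dox against 13.5 and 38.4, and Z00068697-1 read 3.14 and -0.162 against 11.9 and 24.1. The groups did not overlap, but for both probes the 2 arrays without Dox lay further from each other than the dimmer of them did from the nearest array with Dox. Cy5 at the 21 spots differed by -0.08 to 0.15 and none passed there, while the log ratios differed by 0.09 to 0.58 (median 0.32).

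Other probes at that place were brighter on the same array. Among the 536 probes in the block that were off on all Dox+ arrays and were not members, the median Cy3 signal on Etv5 Dox- replicate 2 was 3.83, against -0.037 for such probes elsewhere, a difference of 3.86. Over the other 27 arrays this difference ran from -0.789 to 1.07, the highest being Etv5 Dox- replicate 1. On Etv5 Dox- replicate 2, 12.9% of these block probes were on against 1.14% elsewhere, and on the other 13 Dox- arrays 0.0% to 2.8% were on in the block. Cy5 in the block was also higher there, 5.48 against 2.23. The part of this in the Etv5 count was not tested beyond leaving the columns out.

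The 7 Etv5 members outside these columns included the only one that passed in Cy5. Z00061525-1 read 1.77 and 0.353 with Dox against 16.1 and 19.1, and its Cy5 rose by 0.34 (SE 0.05, adjusted p = 0.00915) with a log ratio difference of less than 0.01 in size. Z00027096-1 was the brightest, at 12.3 and 48.8 without Dox against 3.5 and 1.86 with Dox, with a log ratio difference of 0.12 (SE 0.08). In Cy5 it read 0.449 and 65.9 without Dox against 3.36 and 2.77 with Dox, so only replicate 2 was bright in both dyes.

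The 19 Jmjd2c members were the dimmest. Their Dox- signals ran from 6.91 to 20.2 and their lower bounds from 1.0-fold to 1.26-fold, and Cy5 differed by -0.1 to 0.1. Z00051892-1 had the largest bound: it read 1.49 and 0.723 with Dox against 16.0 and 15.9, with Cy5 at 7.81 and 11.4 against 11.0 and 8.61, and a log ratio difference of 0.48 (SE 0.09). On the Tcl1 arrays the same probe read 9.06 and 8.78 with Dox and 12.5 and 10.1 without, all off at the cutoffs of those arrays, 11.2 and 11.1 with Dox and 14.1 and 15.9 without. Z00075034-1 read 7.82 and 2.55 against 15.9 and 20.2, with a log ratio difference of 0.28 (SE 0.14).

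Z00075034-1 and Z00063639-1 were bright in the reference and near background in the ES cells. In Cy5 they read 533 to 982 and 957 to 1870 over the 28 arrays, and in Cy3 with Dox no more than 7.89 and 7.5. Of the 75 members, 15 (20.0%) were on in Cy5 on all 28 arrays and 9 on none. Among the 8306 probes off in Cy3 on all 28 arrays, 5.66% were on in Cy5 on every array and 74.4% on none. Among all 42006 probes these shares were 61.4% and 17.1%. Members had to be on in Cy3 on some arrays, so a gap to probes never on there can come from the rule. In the exchanged set 13 of 108 were on in Cy5 on all arrays and 16 (14.8%) on none.

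A log ratio difference of at least 0.4, a size set after the values were seen, was found in 15 pairs. Of these, 6 were Etv5 members of columns 75 to 85 and 4 were Z00072898-1. The rest included Z00040042-1 in Tbx3, with Cy3 of -1.47 and -2.51 against 15.1 and 14.9, a log ratio difference of 0.42 (SE 0.10) and a Cy5 difference of 0.00 (SE 0.07, adjusted p = 0.998). Z00007363-1 in Ctbp2 read 3.04 and 4.95 against 17.9 and 17.1, with 0.40 (SE 0.06) in the log ratio and -0.06 (SE 0.05, adjusted p = 1) in Cy5. In these 2 probes the reference was level. Their Cy3 gap was required by the rule, and a cut on the log ratio favours probes level in Cy5. The share of all probes with a difference of that size is not given.

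There were 4 members that shared at least 20 bases with another probe of the array, which gives a second reading of the sequence that the rule did not use. The 3 with the longest shared stretch are shown, with the longest shared run in capitals and the member first in each pair. The last pair was alike outside that run too, with the same base at 59 of the 60 positions.
Z00039263-1: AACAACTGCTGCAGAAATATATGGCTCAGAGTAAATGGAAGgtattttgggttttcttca
Z00070311-1: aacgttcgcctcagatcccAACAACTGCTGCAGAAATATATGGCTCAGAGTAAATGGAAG
Z00063639-1: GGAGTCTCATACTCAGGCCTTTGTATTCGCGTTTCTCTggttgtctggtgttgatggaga
Z00078075-1: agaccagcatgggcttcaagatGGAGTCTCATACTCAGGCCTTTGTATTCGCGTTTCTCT
Z00077194-1: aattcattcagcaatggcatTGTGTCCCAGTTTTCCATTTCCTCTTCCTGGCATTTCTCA
Z00051715-1: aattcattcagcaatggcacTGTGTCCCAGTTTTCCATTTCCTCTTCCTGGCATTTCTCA

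No partner probe followed its member. Z00039263-1 read 2.48 and 4.41 with Dox against 24.3 and 18.9 in Ctbp2, while Z00070311-1, with 41 shared bases, read 3.56 and 4.62 against 2.18 and 0.915 and was off on all 28 arrays. Z00063639-1 read 6.74 and 4.53 against 9.71 and 25.6 in Etv5, while Z00078075-1, with 38 shared bases, read 2.57 and -0.385 against -1.12 and -5.55. Z00077194-1 read 7.84 and 8.05 against 10.7 and 14.0 in Etv5, while Z00051715-1 read 16.2 and 33.9 against 15.6 and 13.9. This partner, with 40 shared bases in its longest run, was on on 6 Dox+ and 5 Dox- arrays, so it was detected with Dox. Its log ratio differed by 0.01 (SE 0.08, limma adjusted p = 0.956). The fourth partner, Z00027790-1 of the Etv5 member Z00027788-1, shared 23 bases and did not pass either (SE 0.07, adjusted p = 0.991). It read 17.8 and 17.7 with Dox against 14.7 and 12.3, and was on on 10 Dox+ and 5 Dox- arrays. In the Etv5 line 5.72% of the 28884 probes tested on the log ratio passed. The first 2 partners were too dim to be tested.

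The sequences of the members did not stand apart in composition. Their GC content had a median of 45.0% (28.3% to 58.3%), as in the exchanged set (45.0%) and in probes on on all 28 arrays (45.0%), against 41.7% in probes off on all 28. The longest run of a single base had a median of 4 in the members and in all probes. No 2 members had the same sequence, and none was among the 7 probes with several spots.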

How the data were processed

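The deposited scanner files hold Cy3 and Cy5 intensity values per spot from Agilent Feature Extraction 9.5.1.1 with protocol GE2-v5_95, per the file headers. The deposited flags (well above background, significantly above background, quality, saturation) are the authors' scanner output and were used as given. The authors' deposited value table holds log10 values of 25030 probes; its scale was set against the scanner values, its centring and reference handling are not stated in the sources used here, and it served only as an alternative.

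Of 43451 spots, 42034 were no controls, and the spot with the lowest number stood for a probe. Members and lists were chosen with earlier results of these data known. The rule counts flags and has no test. In limma 3.58.1 (R 4.3.3), both channels were background-corrected with normexp (offset 50), normalised within arrays by loess and between arrays by Aquantile, and fitted over all 28 arrays with 14 groups, without against with Dox per line; adjusted p-values are Benjamini-Hochberg over all probes tested (30731 in Cy5, 28884 in the log ratio). The members passed the Cy3 filter through the group that chose them. The fit was tested on simulated data. With 2 arrays per group the number of arrays limits the precision. Same-numbered arrays of the 2 groups of a line deviated together with a correlation of 0.43 in Tcl1 and -0.05 to 0.17 in the other lines. Numbers were not taken as pairs, in Tcl1 either, and with a replicate block fewer pairs passed in Cy5, as given below. In Ctbp2, Jarid2 and Mettl5 the same-numbered arrays did not all hold same-numbered cultures, so pairing by culture was not checked there.

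Named were the 5 members on in the most lines (ties by mean Cy3 level without Dox), the 2 with the largest lower bound per line and the 2 largest of the exchanged set; the other probes named were singled out after their values were seen. Lower bounds use per-channel levels without dye swaps and are open to dye bias. Sequences are those of the deposited files; RefSeq tables are of GRCm38.p6. Alternatives were other flags, cutoffs, spots, normalisations, a slide or replicate block, and leaving out arrays, a line or array columns.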

Additional observations from a re-analysis of the deposited data

Results flagged for a closer look

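The number of probes well above background changed in opposite directions in 2 lines. Both Jmjd2c arrays without Dox had more probes on than both with Dox (28653 and 27414 against 27278 and 27019), while both Tcl1 arrays without Dox had fewer (26508 and 25428 against 27670 and 26925), a mean change of -1329.5 in Tcl1 and 885.0 in Jmjd2c. The difference between these lines was not tested.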

How the results depend on the processing

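The 75 members and 108 exchanged probes were the same with the last spot of a probe and with quality-flagged spots set aside. With the weaker flag, signal significantly above background, there were 65 and 138, but only 1 and 2 were among the first sets. With on set at 2 times the cutoff there were 10 and 8, which turns their order, and with on in at least 2 lines 3 and 7. Without columns 75 to 85, chosen after seeing the data like the common cutoff, there were 48 and 98, and without the Tbx3 line 86 and 108. Leaving out an array relaxes the rule by its construction: members ranged from 76 to 317 and exchanged probes from 108 to 404. Each of the 14 Dox- arrays raised the members over 1.5 times (158 or more; Etv5 Dox- replicate 2 to 312, Tbx3 Dox- replicate 1 to 218, Jmjd2c Dox- replicate 1 to 163), each of the 14 Dox+ arrays the exchanged set (186 or more), and Etv5 Dox- replicate 1 the exchanged set to 200. The Cy5 rule gave 26 and 62 without the Tbx3 line.

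The 11 pairs that passed in Cy5 were 12 with quantile normalisation, 10 with slide as a random block, 6 with the processed Cy5 signal, 6 with a replicate block and 7 without the Tbx3 line, whose 5 pairs then drop out. They were 6 to 13 on leaving out an array, with 6 without Tbx3 Dox+ replicate 1 and 7 without replicate 2. The change in probes on per array ranged from -535.8 to -294.1 on leaving out an array (exact permutation p from 0.0312 to 0.359) and passed only without Jmjd2c Dox- replicate 1 (-503.4); it was -430.2 without the Tbx3 line, -695.8 with the weaker flag and -503.2 in Cy5, which passed. Log ratios of the dimmest spots depend on the processing, and the offset alone was not varied. With the processed signals Z00052160-1 differed by 1.48 and Z00048357-1 by 0.26. With median centring, which keeps the offset, the latter differed by -0.58. The cause was not tested.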
